A study of Mus musculus with 6 samples.

Results

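The acid-base transport genes of the mouse kidney were taken as every entry of the deposited table whose symbol names a proton pump (V-ATPase) subunit of the V1 or V0 domain, a member of the anion and bicarbonate transporter families Slc4 and Slc26, a carbonic anhydrase (Car), or one of the Rh glycoproteins Rhbg and Rhcg. The rule found 60 of 40993 entries, and 51 of these reached a mean of 0.5 FPKM (fragments per kilobase of transcript, scaled to the mapped total) over the 6 libraries. Whole kidneys of C57BL/6 mice aged 2 months were compared between a standard diet (3 samples) and an adenine-enriched diet (3 samples), and no other agent or genotype is given for either group. Libraries carry the label's number within each diet, as standard 1 or adenine 1. The labels give neither the adenine content of the feed nor its duration, nor is it stated whether each sample is a separate animal. The p-values therefore measure only sample-to-sample spread, which may be technical. Every ± on a level is an SD with n = 3.

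Just above that level lay Slc26a10, with 0.932, 0.789 and 1.35 FPKM in standard 1 to 3 and 0.530, 0.666 and 1.13 in adenine 1 to 3. The next member below it was Slc4a10, a sodium bicarbonate transporter best known from brain, with 0.166, 0.137 and 0.0470 FPKM in standard 1 to 3 and 0.0707, 0.0338 and 0.387 in adenine 1 to 3. The 9 members left untested were Slc4a10, Slc26a3, Slc26a5, Slc26a8, Slc26a9, Car1, Car6, Car10 and Atp6v1e2. Car10 and Slc26a5 were listed at 0 in every library, and Slc26a9, a chloride transporter of airway and stomach, was listed at 0 on the standard diet and at 0.130, 0.0814 and 0.180 FPKM in adenine 1 to 3. The lower group mean was under 0.5 FPKM for 0 of the 51 members tested.

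As background, the proximal tubule reclaims filtered bicarbonate: protons secreted into the lumen meet bicarbonate, membrane carbonic anhydrases speed the reaction, and the sodium bicarbonate cotransporter Slc4a4 returns the bicarbonate to blood. Intercalated cells of the collecting duct set the final pH of urine, type A cells secreting protons through an apical V-ATPase and releasing bicarbonate through the anion exchanger Slc4a1, and type B cells secreting bicarbonate through pendrin (Slc26a4). The V-ATPase is a rotary pump in which the V1 domain splits ATP and the V0 domain carries protons across the membrane. It acidifies lysosomes in every cell, and several subunits have a second isoform that is enriched in intercalated cells.

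Short stretches of promoter are shown for pump subunits because the pump genes are compared below both with a lysosome list and with intercalated cell markers. The RefSeq table of promoters (GRCm38.p6, from 250 bases before to 50 after each start) held 42 of the 60 members, 16 of them pump genes. The extended E-box TCACGTGA, a palindrome and so the same on both strands, is the core of the element through which the lysosomal regulator TFEB is known to act. It was found at 3 of the 16 pump genes, Atp6v1a, Atp6v0e and Atp6v0d1, against 0.974% of all 32851 promoters in the table. Its first base was 132 bases before the start of Atp6v1a, 4 bases before that of Atp6v0d1 and 2 bases after that of Atp6v0e. The shorter E-box CACGTG, also searched, was found at 4 of the 16 pump genes and 6 of the 42 members, against 7.15% of all promoters. The forkhead letters TGTTTAC, searched on both strands (GTAAACA), were chosen because the forkhead factor Foxi1 is required in intercalated cells. They were found at 2 of the 42 members, Atp6v1b1 and Slc26a1, and so at 1 of the 16 pump genes, against 3.65% of all promoters. Pump genes without an entry could not be searched. The 42 members had 53 promoters, so a share of genes and a share of promoters are not the same measure. Each line gives 30 bases, 5′ to 3′ on the gene's strand, with the matched letters in capitals. They lie at chr16:44139373-44139402, minus strand; chr17:26676387-26676416, plus strand; chr8:105566050-105566079, minus strand; and chr6:83742908-83742937, plus strand.
Atp6v1a: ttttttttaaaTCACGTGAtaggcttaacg
Atp6v0e: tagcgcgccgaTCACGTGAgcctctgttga
Atp6v0d1: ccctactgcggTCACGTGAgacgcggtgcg
Atp6v1b1: accagcttcccTGTTTACagtcaacctggc
A match is a description of letters, not of binding. Of the 3 genes with the extended E-box, Atp6v0e fell as deposited, and all 3 fell after the scaling described next. Of all pump genes tested, 6 of 12 V1 and 1 of 9 V0 genes fell as deposited, against 6.84% of all genes. After that scaling 8 and 3 of them fell, against 15.2% of all genes. A link between the motif and these falls was not tested.

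Low FPKM values come in steps, and the size of a step put the depth at about 17400000 to 23400000 fragments per library. On a transcript of 2 kb, 3 fragments then amount to 0.0712 to 0.0958 FPKM. The median of all 15431 genes tested was 0.25 log2 units higher on the adenine diet, a shift that median-of-ratios scaling takes out, so changes below are given as deposited and after that scaling. Markers of kidney epithelium were present in every library. Of 4 listed skeletal muscle genes 3 were found, and 1 of them, Myh4, was at 0 in every library. Their sum was 0 FPKM in each standard library and 0.735, 0.094 and 0.166 FPKM in adenine 1 to 3. On the adenine diet all 10 macrophage markers rose (10 after scaling), with a summed level of 131 to 160.4 FPKM on the standard and 897 to 2036 FPKM on the adenine diet. Of 7 proximal tubule markers 5 fell (5 after scaling), the sums going from 1437 to 2051 down to 526 to 1229 FPKM. Of 9 intercalated cell markers outside the members, 1 rose (Kit) and 0 fell, and their sums overlapped at 196 to 229 and 187 to 233 FPKM. After scaling 0 rose and 1 fell (Adgrf5), 8 of 9 were lower, and the median log2 change was -0.37 (as deposited, -0.09). Over all genes tested 29.7% rose and 6.84% fell as deposited, and 16.8% and 15.2% after scaling. In whole kidney, fewer cells of a type and less RNA per cell cannot be told apart, and the part of these cell types in the results below was not tested.

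The comparison asks how these genes differ between the diets. On the adenine-enriched diet the proximal tubule carbonic anhydrases Car4 and Car14 and the intercalated cell pump subunit Atp6v1g3 were lower, and the cytosolic carbonic anhydrase Car13 was higher. Of the 51 members tested, 12 fell (23.5%, against 6.84% of all genes tested) and 6 rose (11.8%, against 29.7%), by limma with Benjamini-Hochberg adjustment over all 15431 genes at an adjusted p under 0.05. In all, 36.5% of genes passed. After median-of-ratios scaling 22 fell and 1 rose, against 15.2% and 16.8% of all genes and 32.0% in either direction. These 22 hold all 12 of the first count, and Car13 is the 1 rise in both. With the replicate number as a block 10 fell and 7 rose, against 7.34% and 31.3%. The block and the scaling together gave 28 falls and 1 rise, against 16.8% and 17.3%. With quantile normalization 15 fell and 1 rose, against 14.5% and 13.9%. The members' median log2 change was -0.19 against 0.25 for all genes tested, and -0.42 against -0.00415 after scaling. Of the members, 42 of 51 lay below the median of all genes. The adenine libraries did not overlap the standard ones for 18 members that were lower and 8 that were higher, against 11.8% and 44.4% of all genes tested.

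The calls differed in how well they held. 4 of the 18 called members, Atp6v1g3, Car4, Car13 and Car14, passed under every alternative setting in which they were tested, the omission of each library included. These were all 17 for Atp6v1g3, Car4 and Car14 and 16 for Car13, which lies under the filter of 5 FPKM. The other 14 lost the call when some single library was left out. On leaving out standard 1 to 3 in turn the falls numbered 6, 5 and 6 and the rises 2, 1 and 1. Over all 15431 genes tested these fits gave 403, 350 and 411 falls and 2391, 2516 and 2341 rises. On leaving out adenine 1 to 3 in turn the falls numbered 6, 3 and 18 and the rises 1, 1 and 7. Over all genes tested the falls were 609, 220 and 1598 and the rises 3026, 1833 and 5480. Both counts were highest without adenine 3, among the members as over all genes.

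**Figure D1:**
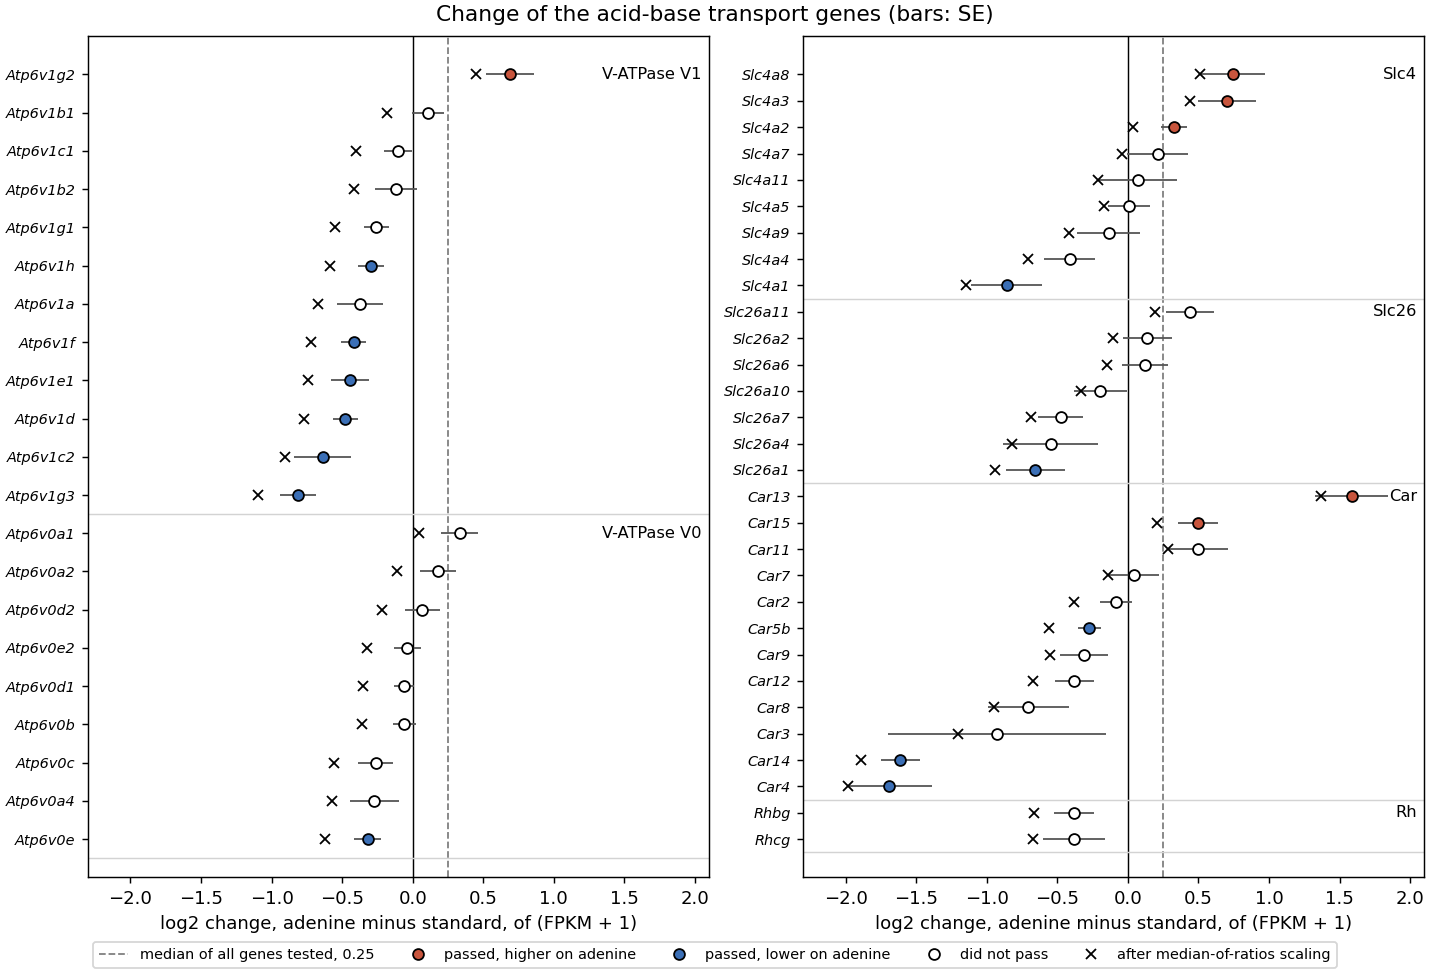
Log2 change (adenine minus standard, of FPKM + 1) of the 51 members tested, by family, with SE bars. Filled points passed the test, crosses give the value after median-of-ratios scaling, and the dashed line marks the median of all genes tested, 0.25; Car4 and Car14 lie farthest left and Car13 farthest right.

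Within the pump, the ATP-splitting V1 domain held 6 of the falls. Of 12 V1 genes tested, 6 fell, 1 rose and 5 did not pass, where 6.84% of all genes fell and 29.7% rose. After scaling 8 fell and 0 rose, where 15.2% and 16.8% of all genes did. The V1 median log2 change was -0.33, and -0.63 once scaled. The central stalk subunits D and F were among the V1 genes that fell. Atp6v1d, the stalk that turns inside the catalytic ring, was at 94.1, 98.7 and 100.3 FPKM in standard 1 to 3 and 66.0, 67.9 and 76.2 in adenine 1 to 3. Every adenine library lay below every standard library, a 1.39-fold lower mean. Atp6v1d had a log2 change of -0.48 ± 0.09 (SE; limma adjusted p = 0.0110), and of -0.77 after scaling (adjusted p = 0.00919). Atp6v1f, which caps that stalk, stood at 146, 143 and 157 FPKM in standard 1 to 3 and 108, 108 and 117 in adenine 1 to 3, again with no overlap. In Atp6v1f the log2 change was -0.42 ± 0.09 (SE; limma adjusted p = 0.0146) and -0.72 after scaling (adjusted p = 0.0106). The limma call was lost for Atp6v1d without adenine 2 (adjusted p = 0.0537), and for Atp6v1f without standard 3 or adenine 2 (adjusted p from 0.0509 to 0.0664).

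The peripheral stalk subunit Atp6v1e1 had 169, 176 and 183 FPKM in standard 1 to 3 and 109, 128 and 152 in adenine 1 to 3. All 3 adenine values were below the standard ones, and the mean fell from 176 ± 7.15 to 129.8 ± 21.4 FPKM. For Atp6v1e1 the log2 change was -0.45 ± 0.13 (SE; limma adjusted p = 0.0418) and -0.74 after scaling (adjusted p = 0.0242). Atp6v1h, which regulates ATP splitting and the coupling of the domains, was at 68.3, 71.1 and 69.8 FPKM in standard 1 to 3 and 53.0, 54.5 and 63.1 in adenine 1 to 3, lower in every adenine library. Atp6v1h had a log2 change of -0.29 ± 0.09 (SE; limma adjusted p = 0.0463), and of -0.59 after scaling (adjusted p = 0.0176), against adjusted p = 0.0591 as deposited with the replicate block. The catalytic subunit Atp6v1a, at 167, 190.0 and 199 FPKM in standard 1 to 3 and 118, 141 and 175 in adenine 1 to 3, did not pass, and adenine 3 overlapped the standard range. In Atp6v1a the log2 change was -0.37 ± 0.16 (SE; limma adjusted p = 0.110) and -0.67 after scaling (adjusted p = 0.0480), against adjusted p = 0.04995 as deposited with the replicate block. Atp6v1b2, the widely expressed B subunit, was at 109.7, 126 and 129.8 FPKM in standard 1 to 3 and 93.3, 112 and 133 in adenine 1 to 3, and Atp6v1c1, the widely expressed C subunit, at 48.2, 52.6 and 55.5 FPKM in standard 1 to 3 and 43.6, 49.9 and 51.8 in adenine 1 to 3. Both overlapped between the diets. For Atp6v1b2 the log2 change was -0.12 ± 0.15 (SE; limma adjusted p = 0.533) and -0.42 after scaling (adjusted p = 0.134), against adjusted p = 0.0426 scaled with the replicate block. Atp6v1c1 had a log2 change of -0.10 ± 0.10 (SE; limma adjusted p = 0.423), and of -0.40 after scaling (adjusted p = 0.0656), against adjusted p = 0.0270 scaled with the replicate block. The widely expressed G subunit Atp6v1g1 was at 114, 106 and 110.5 FPKM in standard 1 to 3 and 87.8, 87.8 and 101.2 in adenine 1 to 3, and its groups did not overlap. In Atp6v1g1 the log2 change was -0.26 ± 0.09 (SE; limma adjusted p = 0.0668) and -0.55 after scaling (adjusted p = 0.0211). Atp6v1a and Atp6v1g1 passed without adenine 3 (limma adjusted p = 0.0237 and 0.0189). The call by limma ended for Atp6v1e1 and Atp6v1h without each single library other than adenine 3 (adjusted p from 0.0804 to 0.149). Other settings that ended a call (limma adjusted p in parentheses) were the absence of a filter for Atp6v1e1 (0.0607) and Atp6v1h (0.0530), quantile normalization for Atp6v1e1 (0.106), a fit with no variance trend for Atp6v1e1 (0.0507) and Atp6v1h (0.0708), a filter at 5 FPKM for Atp6v1h (0.0505) and a robust variance prior for Atp6v1h (0.0547).

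Subunits enriched in intercalated cells behaved unlike one another. Atp6v1g3, the G isoform of these cells (chromosome 1, 138273738 to 138289460, GRCm38), was at 24.3, 26.0 and 29.7 FPKM in standard 1 to 3 and 12.8, 14.6 and 16.9 in adenine 1 to 3. The lowest standard library was well above the highest adenine one, and the mean was 1.81-fold lower. For Atp6v1g3 the log2 change was -0.81 ± 0.13 (SE; limma adjusted p = 0.00762) and -1.10 after scaling (adjusted p = 0.00818). Atp6v1c2, the C isoform of kidney and lung, was at 13.02, 12.7 and 12.5 FPKM in standard 1 to 3 and 5.54, 8.13 and 10.5 in adenine 1 to 3. Its standard values were nearly level and its adenine values spread widely below them, adenine 1 lowest. Atp6v1c2 had a log2 change of -0.64 ± 0.20 (SE; limma adjusted p = 0.0496), and of -0.91 after scaling (adjusted p = 0.0294), against adjusted p = 0.0548 as deposited with the replicate block. Atp6v1b1, the B isoform whose loss causes renal tubular acidosis with deafness in people, was at 42.5, 50.8 and 46.4 FPKM in standard 1 to 3 and 45.3, 49.5 and 56.7 in adenine 1 to 3. These groups overlapped, with adenine 3 the highest of all 6. In Atp6v1b1 the log2 change was 0.11 ± 0.11 (SE; limma adjusted p = 0.454) and -0.18 after scaling (adjusted p = 0.354). The sign of its change turned with scaling, and neither value passed. By limma the call did not hold for Atp6v1c2 without each single library other than adenine 3 (adjusted p from 0.0723 to 0.125). Calls were also ended (limma adjusted p in parentheses) by the absence of a filter for Atp6v1c2 (0.0777), rescaling without the 50 most abundant genes for Atp6v1c2 (0.0552) and a fit with no variance trend for Atp6v1c2 (0.0544).

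Atp6v1g2, the G isoform best known from neurons, was the 1 V1 gene that rose. It was at 4.43, 3.26 and 2.62 FPKM in standard 1 to 3 and 6.16, 5.77 and 6.28 in adenine 1 to 3, with all adenine values above all standard ones. For Atp6v1g2 the log2 change was 0.69 ± 0.17 (SE; limma adjusted p = 0.0238) and 0.45 after scaling (adjusted p = 0.0736). 5.74% of its exonic bases are shared with Nfkbil1 on the other strand in GENCODE M21. The limma call was lost for Atp6v1g2 without standard 2, standard 3, adenine 1 or adenine 2 (adjusted p from 0.0618 to 0.0744). Of the other settings (limma adjusted p in parentheses), calls were ended by quantile normalization for Atp6v1g2 (0.325).

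Fewer genes of the membrane-bound V0 domain passed. Of 9 V0 genes tested, 1 fell and 0 rose, where 6.84% and 29.7% of all genes did. After scaling 3 fell and 0 rose, where 15.2% and 16.8% of all genes did. The V0 median log2 change was -0.06, and -0.35 once scaled. The fall as deposited was that of Atp6v0e, a small subunit of the membrane sector. It was at 156, 163 and 176 FPKM in standard 1 to 3 and 136, 123 and 137 in adenine 1 to 3. Its groups did not overlap. Atp6v0e had a log2 change of -0.32 ± 0.09 (SE; limma adjusted p = 0.0398), and of -0.62 after scaling (adjusted p = 0.0146), against adjusted p = 0.0537 as deposited with the replicate block. The call by limma ended for Atp6v0e without each single library other than adenine 3 (adjusted p from 0.0613 to 0.145). Other settings that ended a call (limma adjusted p in parentheses) were quantile normalization for Atp6v0e (0.122), a fit with no variance trend for Atp6v0e (0.0521) and a robust variance prior for Atp6v0e (0.0529). Atp6v0c, the proteolipid of the proton-carrying ring and the most abundant member per length, was at 357, 373 and 387 FPKM in standard 1 to 3 and 282, 302 and 351 in adenine 1 to 3. All adenine values were under the standard ones, and it passed after scaling but not as deposited. In Atp6v0c the log2 change was -0.26 ± 0.12 (SE; limma adjusted p = 0.139) and -0.56 after scaling (adjusted p = 0.0446). It has processed pseudogenes, to which its reads may be partly assigned. Atp6v0b, the second ring subunit, was at 149.7, 143 and 150.1 FPKM in standard 1 to 3 and 138, 141 and 146 in adenine 1 to 3, with overlap. For Atp6v0b the log2 change was -0.06 ± 0.08 (SE; limma adjusted p = 0.575) and -0.36 after scaling (adjusted p = 0.0530), against adjusted p = 0.04999 scaled with the replicate block. Atp6v0c passed without adenine 3 (limma adjusted p = 0.0347).

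Among the large a subunits, which form the proton half-channels, Atp6v0a4, the isoform of intercalated cells, was at 69.6, 86.0 and 92.6 FPKM in standard 1 to 3 and 56.2, 66.2 and 83.8 in adenine 1 to 3. Adenine 3 lay within the standard range and adenine 1 far below it. Atp6v0a4 had a log2 change of -0.27 ± 0.17 (SE; limma adjusted p = 0.248), and of -0.57 after scaling (adjusted p = 0.0866), against adjusted p = 0.0165 scaled with the replicate block. Atp6v0a1, the widely expressed form, pointed the other way at 19.7, 22.8 and 18.4 FPKM in standard 1 to 3 and 29.7, 25.1 and 22.8 in adenine 1 to 3, with no overlap, but did not pass. In Atp6v0a1 the log2 change was 0.33 ± 0.13 (SE; limma adjusted p = 0.0827) and 0.05 after scaling (adjusted p = 0.736). Atp6v0a2, the form of Golgi and endosomes, was at 24.1 ± 3.79 against 27.2 ± 1.22 FPKM (limma adjusted p = 0.291, and 0.552 after scaling; log2 change 0.18 and -0.11). For the d subunit, Atp6v0d1 was at 46.0, 47.6 and 46.0 FPKM in standard 1 to 3 and 44.5, 43.8 and 45.6 in adenine 1 to 3, a narrow gap without overlap. For Atp6v0d1 the log2 change was -0.06 ± 0.07 (SE; limma adjusted p = 0.518) and -0.35 after scaling (adjusted p = 0.0268). Atp6v0d2, the isoform of kidney, bone and some macrophages, was at 14.99, 15.8 and 19.7 FPKM in standard 1 to 3 and 17.3, 16.6 and 19.0 in adenine 1 to 3, with overlap. Atp6v0d2 had a log2 change of 0.07 ± 0.12 (SE; limma adjusted p = 0.672), and of -0.22 after scaling (adjusted p = 0.314). The last V0 gene, Atp6v0e2, was at 19.9 ± 1.26 against 19.4 ± 1.60 FPKM. In Atp6v0e2 the log2 change was -0.04 ± 0.10 (SE; limma adjusted p = 0.777) and -0.32 after scaling (adjusted p = 0.0898), against adjusted p = 0.0418 scaled with the replicate block. Atp6v0a1 passed without adenine 3 (limma adjusted p = 0.0461).

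When the isoforms of each subunit were summed, the size of the difference varied by subunit. The single or summed levels of subunits D, E, F, G and H were lower on the adenine diet by 28.3%, 26.1%, 25.4%, 19.4% and 18.4% without overlap between the diets. Subunits c and e were lower by 16.3% and 18.1%, also without overlap. Sums for B, a, b and d were lower by 3.02%, 4.14%, 4.06% and 1.79%, with overlapping groups, and A and C were between, at 22.1% and 12.9% with overlap. The sum for a holds the 3 Atp6v0a genes of the rule. With Tcirg1, the a3 subunit, added to it after the data were seen, it was 144 ± 14.0 FPKM on the standard and 169.7 ± 4.75 on the adenine diet, 17.9% higher without overlap. These sums are descriptions and were not tested.

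**Figure D2:**
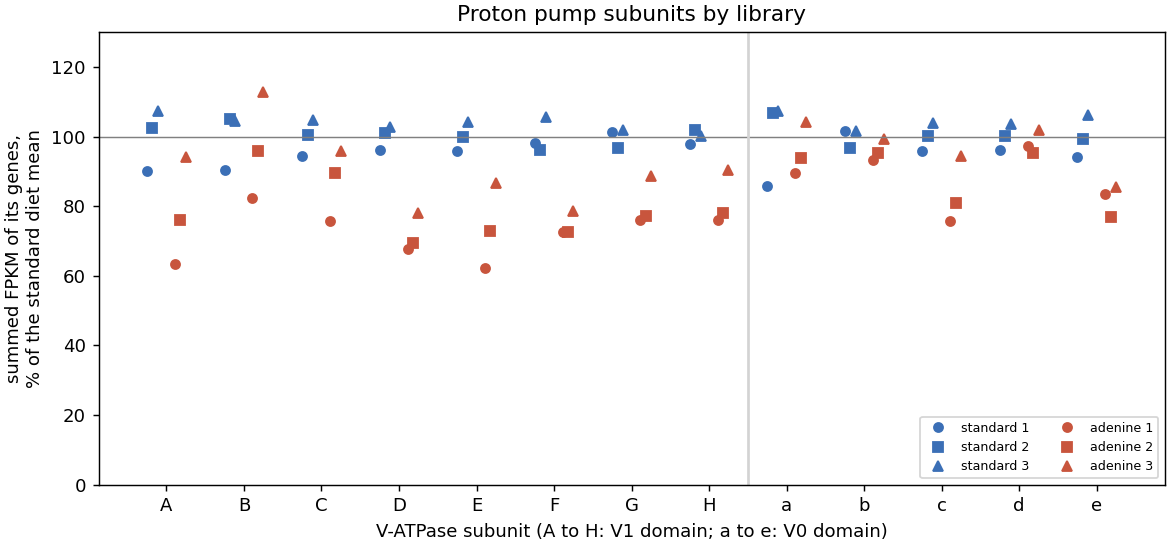
Summed FPKM of each V-ATPase subunit's genes in each library, as a percentage of the standard diet mean, with V1 subunits A to H at the left and V0 subunits a to e at the right. Adenine libraries lie below all standard ones for D to H, c and e, and overlap them for A, B, C, a (without Tcirg1), b and d.

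Ratios of a specialised isoform to its widely expressed relative are free of any scaling between libraries. For 6 such pairs the exact test over 3 against 3 samples cannot go below p = 0.10, so none could pass; Benjamini-Hochberg adjustment over the pairs gave 0.15 for the 4 at 0.10, and 0.24 and 0.40 for the others. The ratio of Atp6v1g3 to Atp6v1g1 was 0.214, 0.244 and 0.269 in standard 1 to 3 and 0.146, 0.166 and 0.166 in adenine 1 to 3. All adenine ratios were lower (difference in log2 ratio -0.60, exact two-sided permutation p = 0.10). For Atp6v1c2 over Atp6v1c1 the ratios were 0.270, 0.241 and 0.224 in standard 1 to 3 and 0.127, 0.163 and 0.202 in adenine 1 to 3, also lower in each adenine library (difference in log2 ratio -0.60, exact two-sided permutation p = 0.10). Atp6v1b1 over Atp6v1b2 ran the other way, at 0.388, 0.402 and 0.358 in standard 1 to 3 and 0.486, 0.441 and 0.425 in adenine 1 to 3, each adenine ratio being higher (difference in log2 ratio 0.24, exact two-sided permutation p = 0.10). The ratio of Atp6v0a4 to Atp6v0a1 was 3.53, 3.78 and 5.02 in standard 1 to 3 and 1.89, 2.64 and 3.67 in adenine 1 to 3, with overlap (difference in log2 ratio -0.62, exact two-sided permutation p = 0.20). That of Atp6v0d2 to Atp6v0d1 was 0.326, 0.333 and 0.427 in standard 1 to 3 and 0.388, 0.379 and 0.416 in adenine 1 to 3, with overlap (difference in log2 ratio 0.13, exact two-sided permutation p = 0.40). As shares of their subunit's summed FPKM on the standard and the adenine diet, Atp6v1g3 averaged 19.0% ± 1.86 and 13.01% ± 0.859 (SD, n = 3). Those of Atp6v1c2 were 19.7% ± 1.49 and 14.0% ± 2.79, and those of Atp6v1b1 27.7% ± 1.19 and 31.0% ± 1.47.

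**Figure D3:**
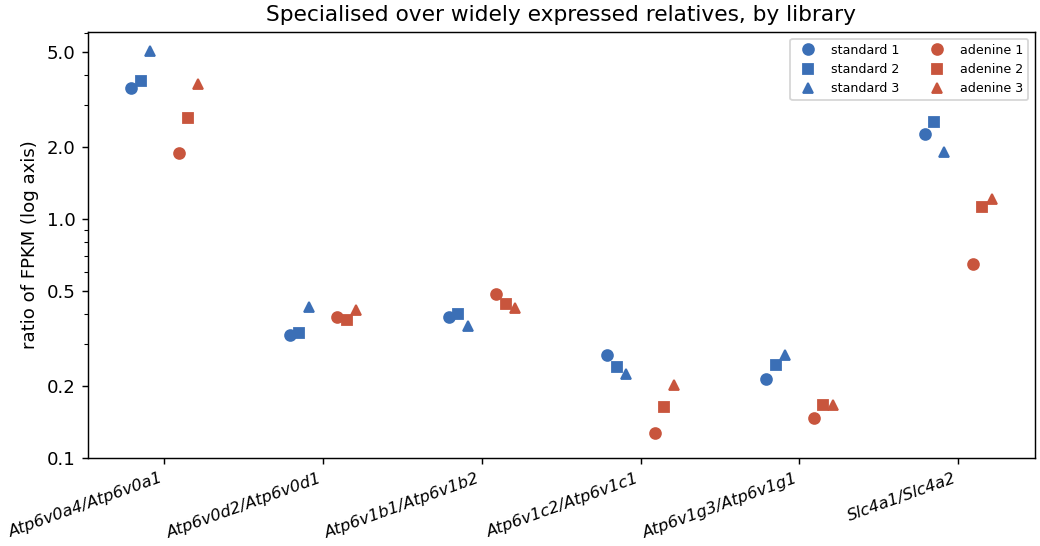
Ratio of FPKM (log axis) of each specialised isoform to its widely expressed relative in the 6 libraries. Adenine libraries lie lower for Atp6v1c2, Atp6v1g3 and Slc4a1 and higher for Atp6v1b1, and overlap for Atp6v0a4 and Atp6v0d2.

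The Slc4 bicarbonate transporters held both falls and rises. Of 9 tested, 1 fell and 3 rose, where 6.84% and 29.7% of all genes did. After scaling 2 fell and 0 rose, where 15.2% and 16.8% of all genes did (median log2 change 0.07 and -0.17). Slc4a1, the basolateral anion exchanger of type A intercalated cells and the band 3 protein of red cells (chromosome 11, 102348824 to 102366203), was at 61.3, 67.2 and 43.8 FPKM in standard 1 to 3 and 21.4, 36.6 and 36.9 in adenine 1 to 3. The groups did not overlap and the adenine mean was 1.81-fold lower. For Slc4a1 the log2 change was -0.86 ± 0.25 (SE; limma adjusted p = 0.0390) and -1.15 after scaling (adjusted p = 0.0227), against adjusted p = 0.0503 as deposited with the replicate block. Among red cell genes, Hbb-bs was at 15.2, 3.78 and 36.6 FPKM in standard 1 to 3 and 66.3, 17.96 and 11.9 in adenine 1 to 3. The erythroid carbonic anhydrase Car1 was listed at 0 in every library other than standard 3 and adenine 3. Of 7 listed red cell genes, Hbb-bs included, 6 were tested and 0 passed, as deposited or after scaling. All 6 were higher on the adenine diet as deposited (median log2 change 0.59), and 5 after scaling (0.34). The part of red cells in the level of Slc4a1 was not tested. Relative to the widely expressed exchanger Slc4a2, the ratio of Slc4a1 was 2.26, 2.54 and 1.90 in standard 1 to 3 and 0.645, 1.12 and 1.21 in adenine 1 to 3, lower in every adenine library (difference in log2 ratio -1.22, exact two-sided permutation p = 0.10). By limma the call did not hold for Slc4a1 without standard 1, standard 2, adenine 1 or adenine 2 (adjusted p from 0.0700 to 0.117). Calls were also ended (limma adjusted p in parentheses) by the absence of a filter for Slc4a1 (0.0644).

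Slc4a4, the basolateral sodium bicarbonate cotransporter of the proximal tubule and the most abundant Slc4 gene, was at 90.6, 124 and 146 FPKM in standard 1 to 3 and 80.9, 96.2 and 88.1 in adenine 1 to 3. Standard 1 lay inside the adenine range, and the gene passed after scaling but not as deposited. Slc4a4 had a log2 change of -0.41 ± 0.18 (SE; limma adjusted p = 0.112), and of -0.71 after scaling (adjusted p = 0.0434). Slc4a4 passed without standard 1 (limma adjusted p = 0.0393). Slc4a2 was at 27.1, 26.5 and 23.0 FPKM in standard 1 to 3 and 33.3, 32.6 and 30.6 in adenine 1 to 3, every adenine value higher. In Slc4a2 the log2 change was 0.32 ± 0.09 (SE; limma adjusted p = 0.0365) and 0.03 after scaling (adjusted p = 0.757). 13.7% of its exonic bases lie opposite Fastk, and no strand-specific kit is named. Slc4a3, an anion exchanger best known from heart and brain, was at 5.17, 6.45 and 4.96 FPKM in standard 1 to 3 and 12.01, 10.3 and 6.997 in adenine 1 to 3. The sodium-driven chloride bicarbonate exchanger Slc4a8 was at 2.75, 2.97 and 2.09 FPKM in standard 1 to 3 and 7.22, 4.30 and 3.96 in adenine 1 to 3. Both rose without overlap, 1.77-fold and 1.98-fold, and neither passed after scaling. For Slc4a3 the log2 change was 0.70 ± 0.20 (SE; limma adjusted p = 0.0380) and 0.44 after scaling (adjusted p = 0.0857). Slc4a8 had a log2 change of 0.74 ± 0.23 (SE; limma adjusted p = 0.0429), and of 0.51 after scaling (adjusted p = 0.0788). Each was highest in adenine 1, where the macrophage markers were also highest. The factor that median-of-ratios scaling divides by was largest there too, at 1.18 against 1.11 and 1.05 in adenine 2 and 3. The part of macrophages was not tested. The limma call was lost for Slc4a2, Slc4a3 and Slc4a8 without each single library other than adenine 3 (adjusted p from 0.0625 to 0.123). Of the other settings (limma adjusted p in parentheses), calls were ended by quantile normalization for Slc4a2 (0.264), Slc4a3 (0.188) and Slc4a8 (0.272), rescaling without the 50 most abundant genes for Slc4a2 (0.0601), a fit with no variance trend for Slc4a2 (0.0550) and the absence of a filter for Slc4a3 (0.0629) and Slc4a8 (0.0756).

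The other Slc4 genes did not pass as deposited or after median-of-ratios scaling. Slc4a9, an exchanger of the type B intercalated cell, was at 16.9, 19.9 and 19.7 FPKM in standard 1 to 3 and 11.7, 18.7 and 22.2 in adenine 1 to 3, adenine 1 lowest and adenine 3 highest of all. In Slc4a9 the log2 change was -0.14 ± 0.22 (SE; limma adjusted p = 0.641) and -0.42 after scaling (adjusted p = 0.250). Slc4a11, Slc4a7 and Slc4a5 were at 13.6 ± 5.33 against 13.6 ± 0.558 FPKM, 5.22 ± 0.943 against 6.29 ± 1.75 FPKM and 1.47 ± 0.311 against 1.47 ± 0.104 FPKM, with adjusted p = 0.859, 0.456 and 0.969 (limma). Their log2 changes were 0.07, 0.21 and 0.01 as deposited and -0.21, -0.04 and -0.17 after scaling (scaled adjusted p = 0.558, 0.860 and 0.362).

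Among 7 Slc26 genes tested, 1 fell and 0 rose, where 6.84% and 29.7% of all genes did. After scaling 2 fell and 0 rose, where 15.2% and 16.8% of all genes did (median log2 change -0.19, and -0.33 after scaling). Slc26a1, the basolateral sulfate and oxalate exchanger of the proximal tubule (chromosome 5, 108669878 to 108675569), was at 29.0, 37.9 and 35.2 FPKM in standard 1 to 3 and 15.9, 21.1 and 28.0 in adenine 1 to 3. Its groups did not overlap and the adenine mean was 1.57-fold lower. For Slc26a1 the log2 change was -0.66 ± 0.21 (SE; limma adjusted p = 0.0487) and -0.94 after scaling (adjusted p = 0.0298). Slc26a7, a basolateral chloride exchanger of medullary type A cells, was at 3.87, 3.30 and 2.64 FPKM in standard 1 to 3 and 1.75, 2.32 and 2.099 in adenine 1 to 3, lower without overlap and called after scaling but not as deposited. Slc26a7 had a log2 change of -0.48 ± 0.16 (SE; limma adjusted p = 0.0574), and of -0.69 after scaling (adjusted p = 0.0193). Pendrin, Slc26a4, was at 13.5, 19.8 and 19.2 FPKM in standard 1 to 3 and 7.11, 10.7 and 19.5 in adenine 1 to 3. Adenine 1 and 2 lay below the standard range and adenine 3 within it. In Slc26a4 the log2 change was -0.55 ± 0.34 (SE; limma adjusted p = 0.234) and -0.82 after scaling (adjusted p = 0.133), against adjusted p = 0.0417 scaled with the replicate block. Slc26a4 passed without adenine 3 (limma adjusted p = 0.0282). Slc26a7 passed with quantile normalization (limma adjusted p = 0.0132). Slc26a7 passed with no variance trend (limma adjusted p = 0.0447). The call by limma ended for Slc26a1 without each single library other than adenine 3 (adjusted p from 0.0735 to 0.138). Other settings that ended a call (limma adjusted p in parentheses) were the absence of a filter for Slc26a1 (0.0763), rescaling without the 50 most abundant genes for Slc26a1 (0.0507) and a fit with no variance trend for Slc26a1 (0.0574).

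Slc26a11, at 4.98, 4.48 and 3.38 FPKM in standard 1 to 3 and 7.21, 6.10 and 5.15 in adenine 1 to 3, was higher without overlap and passed with the replicate number as a block and under none of the other 16 alternatives. For Slc26a11 the log2 change was 0.44 ± 0.17 (SE; limma adjusted p = 0.0871) and 0.19 after scaling (adjusted p = 0.323), against adjusted p = 0.0353 as deposited with the replicate block. The apical anion exchanger Slc26a6, the sulfate transporter Slc26a2 and Slc26a10 were at 7.88 ± 1.71 against 8.58 ± 0.805 FPKM, 3.96 ± 0.797 against 4.45 ± 0.723 FPKM and 1.02 ± 0.293 against 0.775 ± 0.314 FPKM (limma adjusted p = 0.561, 0.543 and 0.436). Their log2 changes were 0.12, 0.14 and -0.19 as deposited and -0.15, -0.10 and -0.33 after scaling (scaled adjusted p = 0.433, 0.582 and 0.245). 17.8% of the exonic bases of Slc26a10 lie opposite B4galnt1. The Rh glycoproteins carry ammonia in the collecting duct. Rhcg was at 44.7, 53.5 and 45.7 FPKM in standard 1 to 3 and 26.1, 37.7 and 49.0 in adenine 1 to 3, with overlap through adenine 3. Rhcg had a log2 change of -0.38 ± 0.22 (SE; limma adjusted p = 0.206), and of -0.67 after scaling (adjusted p = 0.0852). Rhbg was at 17.7, 19.6 and 18.4 FPKM in standard 1 to 3 and 11.5, 14.3 and 16.7 in adenine 1 to 3, lower in every adenine library, and passed after scaling but not as deposited. In Rhbg the log2 change was -0.38 ± 0.14 (SE; limma adjusted p = 0.0733) and -0.66 after scaling (adjusted p = 0.0297). Rhcg and Rhbg passed without adenine 3 (limma adjusted p = 0.0420 and 0.0231). Rhbg passed with quantile normalization (limma adjusted p = 0.0410).

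**Figure D4:**
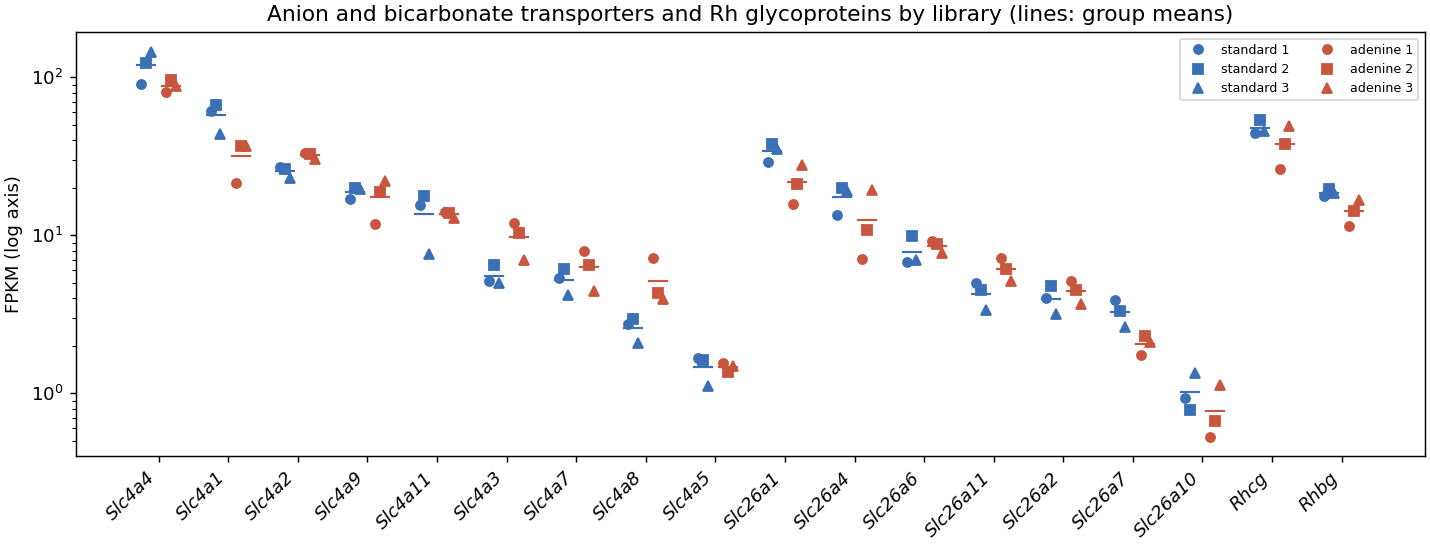
FPKM (log axis) of the Slc4, Slc26 and Rh genes in each library, with lines at the group means. The 3 adenine points of Slc4a1 and Slc26a1 lie below the standard points, those of Slc4a3 and Slc4a8 above, and the adenine points of Slc26a4, Slc4a9 and Rhcg reach from below the standard range into or above it.

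The largest changes of all members were in carbonic anhydrases. Of 12 tested, 3 fell, 2 rose and 7 did not pass, where 6.84% of all genes fell and 29.7% rose. After scaling 6 fell and 1 rose, where 15.2% and 16.8% of all genes did. The median log2 change of the 12 was -0.29, and -0.56 once scaled. Car4, the lipid-anchored enzyme of the proximal tubule brush border (chromosome 11, 84957786 to 84966044), was at 84.6, 92.0 and 88.5 FPKM in standard 1 to 3 and 16.6, 26.6 and 42.6 in adenine 1 to 3. Every adenine value was well below the standard ones, adenine 1 lowest, and the mean was 3.09-fold lower. For Car4 the log2 change was -1.69 ± 0.30 (SE; limma adjusted p = 0.0104) and -1.98 after scaling (adjusted p = 0.0109). Car14, a membrane-spanning enzyme of the proximal tubule (chromosome 3, 95897768 to 95904691), was at 25.0, 29.9 and 32.5 FPKM in standard 1 to 3 and 8.62, 7.82 and 10.1 in adenine 1 to 3. Its adenine values lay close together, at a 3.29-fold lower mean. Car14 had a log2 change of -1.61 ± 0.14 (SE; limma adjusted p = 0.00324), and of -1.89 after scaling (adjusted p = 0.00304). Of the proximal tubule markers, the phosphate transporter Slc34a1 was 1232 ± 245 against 506 ± 222 FPKM and fell too. In Slc34a1 the log2 change was -1.36 ± 0.36 (SE; limma adjusted p = 0.0287) and -1.66 after scaling (adjusted p = 0.0256). By limma the call did not hold for Slc34a1 without standard 1, standard 2, standard 3 or adenine 2 (adjusted p from 0.0565 to 0.0913). Calls were also ended (limma adjusted p in parentheses) by the absence of a filter for Slc34a1 (0.0548) and quantile normalization for Slc34a1 (0.0729). The part of that cell type in the falls of Car4 and Car14 was not tested. 17.5% of the exonic bases of Car14 lie opposite Aph1a.

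Car13, a cytosolic enzyme, rose from low levels (chromosome 3, 14641727 to 14663002). It was at 1.08, 1.48 and 1.40 FPKM in standard 1 to 3 and 8.51, 6.32 and 3.80 in adenine 1 to 3, a 4.71-fold higher mean, with adenine 1 highest. For Car13 the log2 change was 1.58 ± 0.26 (SE; limma adjusted p = 0.00815) and 1.37 after scaling (adjusted p = 0.00967). Macrophage markers were also highest in adenine 1, at a summed 2036 FPKM against 1123 and 897 in adenine 2 and 3. So was the median-of-ratios factor, at 1.18 against 1.11 and 1.05. The part of macrophages in the rise of Car13 was not tested. Car15, a lipid-anchored enzyme of mouse kidney, was at 27.5, 38.8 and 37.7 FPKM in standard 1 to 3 and 46.6, 48.8 and 51.4 in adenine 1 to 3. It rose without overlap as deposited but not after scaling. Car15 had a log2 change of 0.50 ± 0.14 (SE; limma adjusted p = 0.0355), and of 0.21 after scaling (adjusted p = 0.358). In GENCODE M21 65.7% of its exonic bases are shared with Gm20518 on the same strand, so reads may be split between the entries and its level is uncertain. The limma call was lost for Car15 without any 1 of the libraries (adjusted p from 0.0529 to 0.102). Of the other settings (limma adjusted p in parentheses), calls were ended by the absence of a filter for Car15 (0.0533) and quantile normalization for Car15 (0.0748).

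Car2, the main cytosolic enzyme of tubule cells and the most abundant carbonic anhydrase per length, was at 149, 171 and 177 FPKM in standard 1 to 3 and 141, 164 and 165 in adenine 1 to 3. These overlapped. In Car2 the log2 change was -0.08 ± 0.11 (SE; limma adjusted p = 0.580) and -0.38 after scaling (adjusted p = 0.0951), against adjusted p = 0.0387 scaled with the replicate block. Car2, Car3, Car1 and Car13 lie side by side on chromosome 3, from 14641727 to 14900769, so neighbours in this cluster ranged from a called rise (Car13) to no call (Car2 and Car3). Car3, an enzyme of fat and muscle, varied widely within each diet, at 18.4, 19.1 and 10.9 FPKM in standard 1 to 3 and 13.1, 19.1 and 1.38 in adenine 1 to 3. For Car3 the log2 change was -0.93 ± 0.77 (SE; limma adjusted p = 0.362) and -1.20 after scaling (adjusted p = 0.249). The adipocyte gene Adipoq was listed at 0 in standard 3 and adenine 3, which also had the lowest Car3 of their groups. The whole list of 5 adipose genes did not follow that order on the adenine diet. Its sums were 187.7, 174.8 and 115.1 FPKM in standard 1 to 3 and 84.6, 163.6 and 89.4 in adenine 1 to 3. The part of fat cells in Car3 was not tested.

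The mitochondrial enzyme Car5b was at 28.7, 29.1 and 27.2 FPKM in standard 1 to 3 and 24.9, 22.7 and 22.3 in adenine 1 to 3. It fell by a small step without overlap. Car5b had a log2 change of -0.27 ± 0.08 (SE; limma adjusted p = 0.0429), and of -0.56 after scaling (adjusted p = 0.00584), against adjusted p = 0.0553 as deposited with the replicate block. Car12, a membrane enzyme of the collecting duct, was at 44.7, 56.4 and 52.2 FPKM in standard 1 to 3 and 33.1, 39.9 and 44.4 in adenine 1 to 3, and passed after scaling or with the replicate block. In Car12 the log2 change was -0.38 ± 0.14 (SE; limma adjusted p = 0.0707) and -0.67 after scaling (adjusted p = 0.0283), against adjusted p = 0.0328 as deposited with the replicate block. Car8, a related protein without catalytic activity, was at 6.51, 8.56 and 3.52 FPKM in standard 1 to 3 and 3.86, 3.26 and 2.62 in adenine 1 to 3. For Car8 the log2 change was -0.71 ± 0.29 (SE; limma adjusted p = 0.0935) and -0.95 after scaling (adjusted p = 0.0340), against adjusted p = 0.0468 as deposited with the replicate block. Car9, a hypoxia-induced membrane enzyme, was at 5.97, 5.53 and 4.39 FPKM in standard 1 to 3 and 3.35, 4.02 and 4.88 in adenine 1 to 3, with overlap through adenine 3. Car9 had a log2 change of -0.31 ± 0.17 (SE; limma adjusted p = 0.180), and of -0.55 after scaling (adjusted p = 0.0493), against adjusted p = 0.0876 scaled with the replicate block. Car11 and Car7 were at 2.00 ± 0.405 against 3.28 ± 0.935 FPKM and 1.53 ± 0.447 against 1.59 ± 0.272 FPKM (limma adjusted p = 0.102 and 0.860). Their log2 changes were 0.50 and 0.04 as deposited and 0.28 and -0.14 after scaling (scaled adjusted p = 0.266 and 0.553). Summed over Car4, Car9, Car12, Car14 and Car15, the membrane enzymes were at 209 ± 18.4 FPKM on the standard and 129.6 ± 22.6 on the adenine diet without overlap. The cytosolic Car1, Car2, Car3, Car7 and Car13 summed to 185 ± 12.3 and 176 ± 13.2 with overlap. Car12 and Car11 passed without adenine 3 (limma adjusted p = 0.0379 and 0.0241). Car8 passed without standard 3 (limma adjusted p = 0.0331). Car8 and Car9 passed with quantile normalization (limma adjusted p = 0.0160 and 0.0362). The call by limma ended for Car5b without each single library other than adenine 1 (adjusted p from 0.0635 to 0.140). Other settings that ended a call (limma adjusted p in parentheses) were a fit with no variance trend for Car5b (0.0669).

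**Figure D5:**
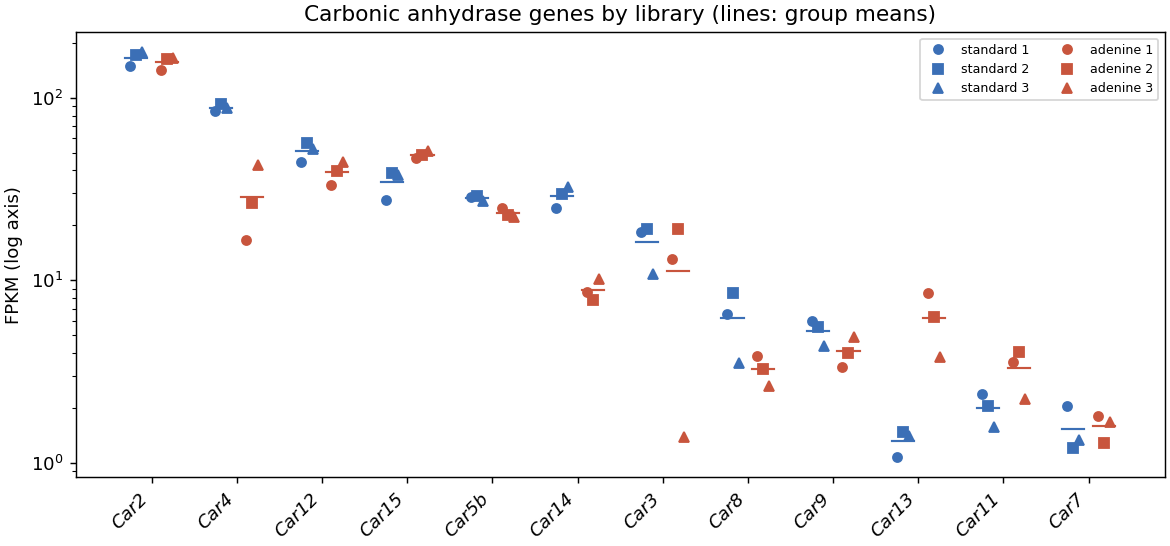
FPKM (log axis) of the 12 tested carbonic anhydrase genes in each library, with lines at the group means. Car4 and Car14 are lower in all adenine libraries (28.6 and 8.85 FPKM on average), Car13 is higher in all of them, and Car2 overlaps.

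Of 29 other genes of acid-base handling, 27 were tested. As deposited 2 rose and 1 fell, where 29.7% and 6.84% of all genes did. After scaling 1 rose and 7 fell, where 16.8% and 15.2% of all genes did (median log2 change -0.16, and -0.44 after scaling). Tcirg1, the a3 subunit of the pump in osteoclasts and macrophage lysosomes, whose symbol lies outside the naming rule, was at 18.9, 18.2 and 13.5 FPKM in standard 1 to 3 and 58.8, 44.97 and 39.9 in adenine 1 to 3, higher in every adenine library and highest in adenine 1, as the macrophage markers were. In Tcirg1 the log2 change was 1.45 ± 0.18 (SE; limma adjusted p = 0.00508) and 1.16 after scaling (adjusted p = 0.00565). The median-of-ratios factor was also largest in adenine 1, and the part of macrophages in Tcirg1 was not tested. The glutamine transporter Slc38a3, which feeds ammonia production, rose from 25.9 ± 1.11 to 33.6 ± 3.30 FPKM. For Slc38a3 the log2 change was 0.36 ± 0.10 (SE; limma adjusted p = 0.0318) and 0.07 after scaling (adjusted p = 0.712). The TLDc-domain gene Tldc2 fell from 7.08 ± 2.26 to 3.32 ± 0.282 FPKM. Tldc2 had a log2 change of -0.87 ± 0.21 (SE; limma adjusted p = 0.0234), and of -1.11 after scaling (adjusted p = 0.0112). By limma the call did not hold for Slc38a3 without each single library other than adenine 1 (adjusted p from 0.0530 to 0.115), and for Tldc2 without standard 1, standard 2, adenine 1 or adenine 2 (adjusted p from 0.0539 to 0.0832). Calls were also ended (limma adjusted p in parentheses) by quantile normalization for Slc38a3 (0.297) and rescaling without the 50 most abundant genes for Slc38a3 (0.0629). Passing after scaling but not as deposited were the pump assembly factors Dmxl1 and Wdr72, the TLDc gene Ncoa7, the receptor gene Adgrf5 and the potassium channels Kcnj15 and Kcnj16, all lower (adjusted p = 0.0305, 0.0487, 0.0189, 0.0320, 0.0483 and 0.0456). Kcnj15 and Kcnj16 also passed with the replicate block (limma adjusted p = 0.0309 and 0.0276).

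The apical exchanger Slc9a3, the main route of proton secretion in the proximal tubule, was at 26.8, 42.2 and 46.0 FPKM in standard 1 to 3 and 14.9, 28.9 and 33.8 in adenine 1 to 3, with overlap. In Slc9a3 the log2 change was -0.59 ± 0.33 (SE; limma adjusted p = 0.198) and -0.88 after scaling (adjusted p = 0.114), against adjusted p = 0.0177 and 0.0130 with the replicate block. Pck1, the gluconeogenic enzyme that acidosis raises in this segment, was at 614, 726 and 964 FPKM in standard 1 to 3 and 482, 612 and 834 in adenine 1 to 3. For Pck1 the log2 change was -0.27 ± 0.27 (SE; limma adjusted p = 0.441) and -0.57 after scaling (adjusted p = 0.209), against adjusted p = 0.0491 scaled with the replicate block. Foxi1 was at 12.9, 13.8 and 13.7 FPKM in standard 1 to 3 and 7.94, 12.1 and 14.0 in adenine 1 to 3, with adenine 1 and 2 below the standard range. Foxi1 had a log2 change of -0.26 ± 0.19 (SE; limma adjusted p = 0.311), and of -0.54 after scaling (adjusted p = 0.111). In the lysosome list 7 of 14 genes rose and 1 fell, where 29.7% and 6.84% of all genes did. After scaling 3 rose and 3 fell, where 16.8% and 15.2% of all genes did. The list's median log2 change was 0.48 as deposited and 0.19 after scaling. For all genes tested the medians were 0.25 and -0.00415. Those of V1 were -0.33 and -0.63, and those of V0 -0.06 and -0.35.

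The adenine libraries differed among themselves in the pump genes. Of the 12 V1 genes, 10 had their lowest adenine value in adenine 1 and 12 their highest in adenine 3, against 23.4% and 25.3% of all genes tested (11 and 12 after scaling, against 37.3% and 36.8%). Of the 9 V0 genes, 4 were lowest in adenine 1 and 7 highest in adenine 3 (7 and 7 after scaling). Summed over the V1 genes the level was 749, 828 and 959.8 FPKM in adenine 1 to 3, and 1000.3, 1057 and 1096 in standard 1 to 3. The summed proximal tubule markers were also lowest in adenine 1 and highest in adenine 3, at 526, 846 and 1229 FPKM, and the intercalated cell markers were at 187, 218 and 233 FPKM. The part of either cell type in this order was not tested.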

How the data were processed

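Total RNA of whole kidneys was made into TruSeq libraries from 1 μg with random hexamers and read as 100 bp pairs on a HiSeq2500, per the labels' protocols. Tools in the submitters' processing notes are TopHat, bcl2fastq 2.0 and Cufflinks 2.1.1, with mm10 and GRCm38 as builds, and the annotation is not given in the sources used here. Values were deposited by the authors as FPKM per gene, without counts or tests. Columns were matched to samples by diet and number, and 6 columns of other samples were not used. A few genes spanning less than 300 bp carry extreme FPKM, 90.1% of the sum in standard 2 and 11.2% to 26.3% elsewhere; no member is among them.

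Genes averaging 0.5 FPKM or more (15431) were fitted with limma 3.58.1 (R 4.3.3; intensity trend, two-sided, Benjamini-Hochberg, threshold 0.05) on log2(FPKM + 1), which understates changes of low genes. Folds are ratios of mean FPKM. Low values fell within 0.15 of whole fragments for only 66.6% to 72.1% of values at 1 to 3 steps (nominal fragment 200 bp), so no count test was run and depths are approximate. On simulated data with 15431 genes, the fit called 35 of the 100 set to change 2-fold and 73 of the 100 set to 4-fold, and 2 others. Only those genes were set to change, without a shift of the rest, while 36.5% of genes passed in the data. The simulated shares therefore do not give the power of this comparison. Same-numbered samples deviated together (r = 0.257, 0.143 and 0.181; other pairings -0.187 to 0.0376), so a blocked adjusted p stands beside each named gene whose call it changes; no label states a pairing. Gene overlaps come from GENCODE M21 (97.7% of identifiers found); positions are those of the table. Every member above 0.5 FPKM is described, with library values for members called as deposited or after scaling, the highest 2 of each family, the isoform pairs and some others. Members and lists were chosen with earlier results of these data known, and 1 gene of the list of other acid-base genes is not reported here. Alternatives were pseudocounts of 0.1 and 0.5, no filter or a mean of 5 FPKM, 3 rescalings and 2 variance priors. The others were the block alone, the block with median-of-ratios scaling, and each library left out.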

Additional observations from a re-analysis of the deposited data

How the results depend on the processing

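Across the 17 alternatives, member changes kept sign and call in 663 instances, lost a call in 105, gained one in 46 and turned sign in 42. The 12 falls became 7 with no filter, 7 with no variance trend, 22 after median-of-ratios scaling and 28 with the replicate block and that scaling; the block alone gave 10 falls and 7 rises. The 6 rises became 3 with a filter at 5 FPKM, which leaves out Car13, Slc4a8 and Atp6v1g2, and 1 after median-of-ratios scaling, with quantile normalization, and with the replicate block and scaling. Leaving out 1 library gave 3 to 18 falls, 1 to 7 rises and 2053 to 7078 changed genes in all, against 5637. The 6 isoform ratios kept their sign at a pseudocount of 0.1, in each omission and in the mean over replicate pairs, where the exact p cannot go below 0.25; in replicate pair 3 alone Atp6v0d2 over Atp6v0d1 was lower on the adenine diet (0.427 and 0.416). The summed level of subunit a turned from -4.14% to 17.9% on the adenine diet once Tcirg1 was added, an alternative chosen after seeing the data. None of the members that turned sign had passed as deposited. Signs turned after median-of-ratios scaling, with the same values with and without the block, for Slc4a11 (-0.21), Atp6v0d2 (-0.22), Atp6v0a2 (-0.11), Slc4a5 (-0.17), Atp6v1b1 (-0.18), Car7 (-0.14), Slc4a7 (-0.0448), Slc26a6 (-0.15) and Slc26a2 (-0.10). They turned with quantile normalization for Slc4a11 (-0.28), Car2 (0.0791), Atp6v0d2 (-0.21), Atp6v0b (0.0835), Atp6v0a2 (-0.0423), Slc4a5 (-0.47), Car11 (-0.0300), Car7 (-0.45), Slc4a7 (-0.24), Slc26a6 (-0.29), Slc26a11 (-0.0258) and Slc26a2 (-0.34), of which Slc4a5 then passed (adjusted p = 0.0405), and, on rescaling with the 50 most abundant genes left out, for Slc4a5 (-0.00867). Over the omissions of 1 library the sign turned, with the range of log2 change in parentheses, for Slc4a11 (-0.27 to 0.29), Car3 (-1.53 to 0.0117), Atp6v0d2 (-0.00553 to 0.18), Atp6v0e2 (-0.0989 to 0.00899), Slc4a5 (-0.10 to 0.0687), Atp6v1b2 (-0.25 to 0.00767), Car7 (-0.0484 to 0.18) and Slc4a9 (-0.32 to 0.11). The cause of these changes was not tested. Depth limits the 9 members under 0.5 FPKM, several of which lie near the level of 3 fragments.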
